A study of Homo sapiens with 6 samples.

Results

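The NF-kB transcription factors, the proteins that restrain them and 2 genes of their feedback loop were examined in HK-2 cells, an established cell line of human proximal tubule epithelium, after knockdown of PARP1, the gene of the main nuclear poly(ADP-ribose) polymerase. The group held 10 genes chosen by symbol: the subunits NFKB1, NFKB2, REL, RELA and RELB, the inhibitors NFKBIA, NFKBIB and NFKBIE, and TNFAIP3 and BIRC3. All 10 were among the 30403 genes of the count table, and all 10 passed the filter on low counts that left 16040 genes for testing. Cells were transfected with a plasmid for an shRNA against PARP1 (shPARP1, 3 libraries) or with a control shRNA plasmid (shCtrl, 3 libraries). Both groups received the lipid reagent Lipofectamine and no other agent named in the labels, and RNA was taken 48 h later. The transfection was transient and bulk RNA was taken, so that fewer cells expressing a gene and less RNA per cell cannot be told apart. The labels do not say how many shRNA sequences were used, nor whether a replicate was a culture of its own. The spread between libraries, which all p-values rest on, may thus be technical.

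NF-kB proteins act as dimers. RELA pairs mainly with the product of NFKB1 in the canonical pathway, and RELB pairs mainly with the product of NFKB2 in the non-canonical pathway, while REL is most abundant in blood cells. The IkB proteins made from NFKBIA, NFKBIB and NFKBIE hold the dimers in the cytoplasm until the IKK kinase complex marks them for destruction, and NFKBIA is itself a classical target of NF-kB, which closes a negative feedback loop. TNFAIP3 encodes the ubiquitin-editing enzyme A20, which shuts the signal off, and BIRC3 encodes cIAP2, a ubiquitin ligase at TNF receptors. In tubular epithelium the pathway is known for the cytokines and chemokines released after injury, and PARP1 protein has been described as a cofactor of NF-kB in other cells.

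Several of these genes are known targets of NF-kB, so matches to the kappa-B motif near their starts are shown first. Promoter windows from RefSeq (build GRCh38.p14), each reaching from 250 bases before a transcription start to 50 after it, were searched on both strands for the kappa-B consensus motif. The motif was GGGRNNYYCC, with R for A or G, Y for C or T and N for any base. A window was held for 8 of the 10 genes, and RELB and NFKBIE had none. At least 1 window of 7 of these 8 genes held a match, RELA being the exception, and 8 of their 13 windows did so. Among all 35116 windows of the same length, 11.3% held a match, and 13.3% of all 27305 genes with a window had at least 1 match. Those genes include ones not expressed here. Of the tested genes with a window, which include all 8, 1819 had a match and 8570 had none. A gene with several windows has more chances of a match, and the 8 genes had 13 windows. The sites below are written 5′ to 3′ on the strand of the gene, with the matched bases in capitals.
NFKB1: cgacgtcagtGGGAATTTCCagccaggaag
NFKB2, middle start: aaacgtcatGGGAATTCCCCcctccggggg
NFKB2, downstream start: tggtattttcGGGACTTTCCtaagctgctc
REL: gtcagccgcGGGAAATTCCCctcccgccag
NFKBIA: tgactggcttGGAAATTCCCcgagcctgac
NFKBIB: ggcgtggtgGGGAATTTCCCgcagggcgga
TNFAIP3: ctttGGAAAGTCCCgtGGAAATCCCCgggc
BIRC3: tttgggtcatGGAAATCCCCgagtgggttt

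The NFKB1 site lies at chr4:102501300-102501329 on the plus strand, with its first matched base at -49 from the start. Those of NFKB2 lie at chr10:102394462-102394491 and chr10:102395674-102395703, plus strand, at -107 and -21 from 2 of its 3 annotated starts, and each of these windows held another match. The REL site is at chr2:60881518-60881547, plus strand, from -47. The NFKBIA site is at chr14:35404811-35404840 on the minus strand, from -81. The NFKBIB site is at chr19:38899932-38899961, plus strand, from -28 of the second of its 2 starts, and a further match lay at 39 bases after that start. The TNFAIP3 run holds 2 matches, from -67 to -46, at chr6:137867188-137867217, plus strand. The BIRC3 site is at chr11:102317275-102317304, plus strand, from -199, and a further match lay at -135. In the runs of NFKB2 (middle start), REL and NFKBIB, matches on the 2 strands overlap. A match describes letters in a window and does not show binding, and the lack of a match does not show the lack of a site.

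The knockdown was checked in every library. PARP1 had 262, 263 and 259 CPM (read counts scaled to the library's total with TMM factors) in shCtrl replicates 1 to 3 and 26.9, 26.2 and 28.8 CPM in shPARP1. The log2 fold change was -3.26 (SE 0.04), with an adjusted p of 1.7e-51 in edgeR's quasi-likelihood test. Library totals were 24429683 to 26269194 counts in shCtrl and 29387853 to 32809303 in shPARP1, so that depth moved with the group. With counts thinned to the smallest total, 6 of the 10 NF-kB genes were called higher and 2 lower, as without thinning. The response was broad: 55.7% of the 16040 genes tested were called at an adjusted p under 0.05, 27.3% higher and 28.5% lower, and any count below is to be read against these shares. The epithelial keratins KRT8 and KRT18 and the kidney genes PAX8 and CDH6 were present, while 6 of 13 proximal tubule markers, among them LRP2 and CUBN, stayed under 1 CPM in every library. Of the 7 proximal tubule markers tested, 6 were called lower and 0 higher, CDH6 among them (2.08-fold lower), and the sum of the list went from 1344 to 1362 CPM in shCtrl to 924 to 946 in shPARP1. Of 5 epithelial markers, 3 were called higher and 1 lower, with sums of 932 to 951 and 1102 to 1129 CPM. Summed fibroblast markers went from 20.4 to 23.5 CPM in shCtrl to 10.2 to 11.7 in shPARP1 (3 of 6 lower, with PDGFRA, DCN and COL3A1 under 1 CPM). Summed leukocyte markers went from 14.4 to 16.7 CPM to 11.3 to 11.8 (CD14 lower, CD68 higher, with CD3E, LYZ, ITGAM and NKG7 among those under 1 CPM), and the 3 endothelial markers in the table, PECAM1, VWF and CDH5, were under 1 CPM. The part of these markers in the results was not tested.

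Of the 10 NF-kB genes, 6 rose, 2 fell and 2 did not pass the test. Over all genes tested, 27.3% were called higher and 28.5% lower. The risers among the 10 were the 3 IkB inhibitors, the non-canonical subunits RELB and NFKB2, and BIRC3. The canonical subunits NFKB1 and RELA fell, and REL and TNFAIP3 were not called. The median log2 fold change over the 10 genes was 0.20, beside -0.01 over all genes tested. The 2 groups' CPM ranges were apart for 7 of the 10 genes, 5 higher and 2 lower in shPARP1, beside 60.1% of all genes tested (29.7% higher and 30.4% lower). Tested against a 1.5-fold minimum, 2 of the 10, NFKBIB and BIRC3, were called, beside 9.79% of all genes tested.

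**Figure D1:**
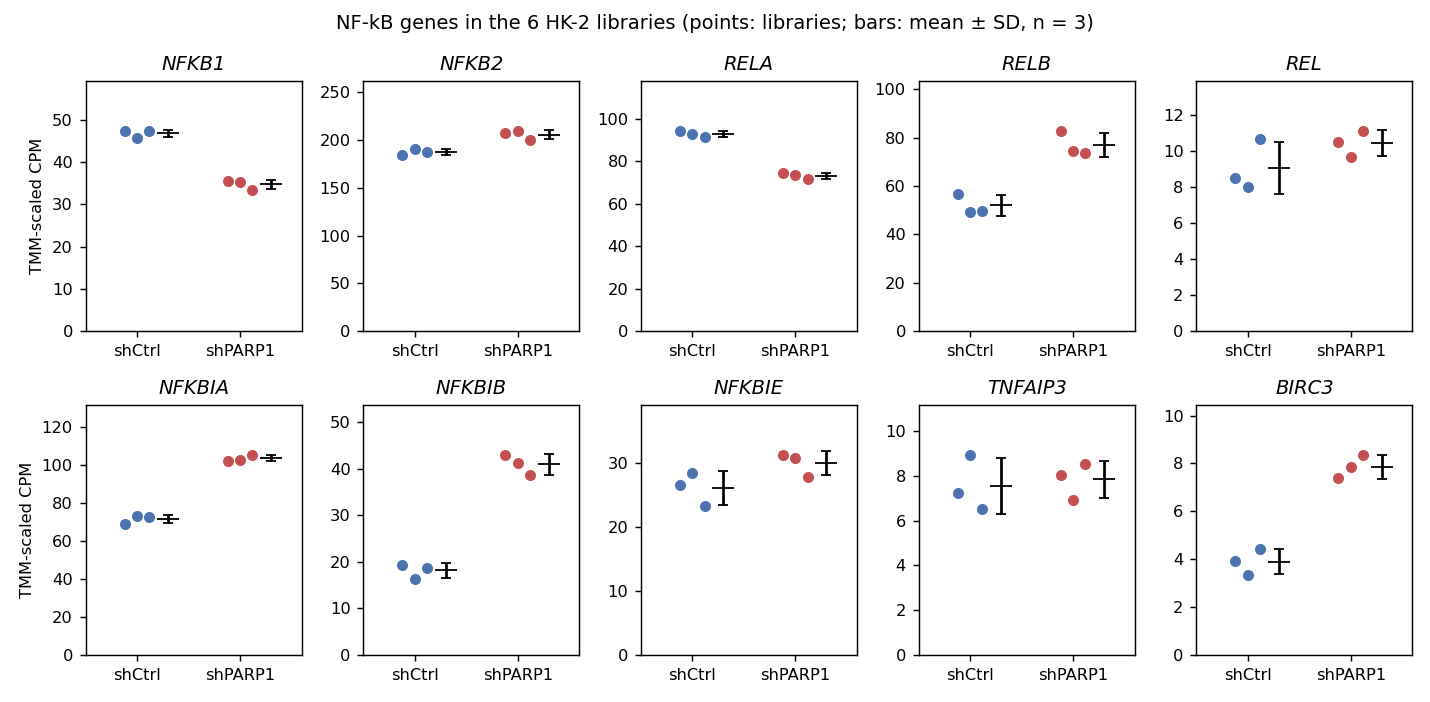
TMM-scaled CPM of each NF-kB gene (vertical axes from 0, a separate scale for each gene) in the 3 shCtrl (blue) and 3 shPARP1 (red) libraries, with the mean ± SD beside the points. The groups lie apart for NFKB1, NFKB2, RELA, RELB, NFKBIA, NFKBIB and BIRC3 and overlap for REL, NFKBIE and TNFAIP3.

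Both canonical subunits were lower after knockdown. RELA, which encodes the p65 subunit with the main transactivation domain, had 94.1, 92.7 and 91.4 CPM in shCtrl and 74.5, 73.3 and 71.6 CPM in shPARP1. Every shPARP1 library lay below every shCtrl library, with a log2 fold change of -0.34 (SE 0.04, edgeR adjusted p = 1.1e-09). NFKB1, which encodes p105 and its processed form p50, had 47.3, 45.7 and 47.3 CPM in shCtrl and 35.6, 35.2 and 33.5 CPM in shPARP1. Its log2 fold change was -0.43 (SE 0.06, edgeR adjusted p = 4.2e-09), and the groups were again apart. With an offset for exon length and GC content the log2 fold change of RELA was -0.22 and that of NFKB1 was -0.30, and both stayed called.

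The non-canonical pair moved the other way. RELB had 56.8, 49.2 and 49.8 CPM in shCtrl and 82.7, 74.3 and 73.7 CPM in shPARP1. Its log2 fold change was 0.57 (SE 0.05, edgeR adjusted p = 1.9e-13). Replicate 1 was the highest of its group in both conditions, and the groups did not overlap. NFKB2, which encodes p100, both an inhibitor of RELB and the precursor of p52, had 185, 191 and 188 CPM in shCtrl and 207, 210 and 201 CPM in shPARP1. The rise was small, a log2 fold change of 0.13 (SE 0.04, edgeR adjusted p = 0.0016), and was 0.27 after the length and GC correction. REL had 8.48, 8.01 and 10.7 CPM in shCtrl and 10.5, 9.69 and 11.1 CPM in shPARP1, so that shCtrl replicate 3 lay within the shPARP1 range. Its log2 fold change of 0.20 (SE 0.11) was not called (edgeR adjusted p = 0.10). Without shCtrl replicate 3 it was 0.34 (edgeR adjusted p = 0.0108), and after the length and GC correction 0.29 (edgeR adjusted p = 0.0119). In GENCODE 29, 43.3% of the exon bases of REL are shared with a non-coding RNA gene on the same strand, AC010733.2. That RNA gene was not among the genes of the count table, so its level could not be given.

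**Figure D2:**
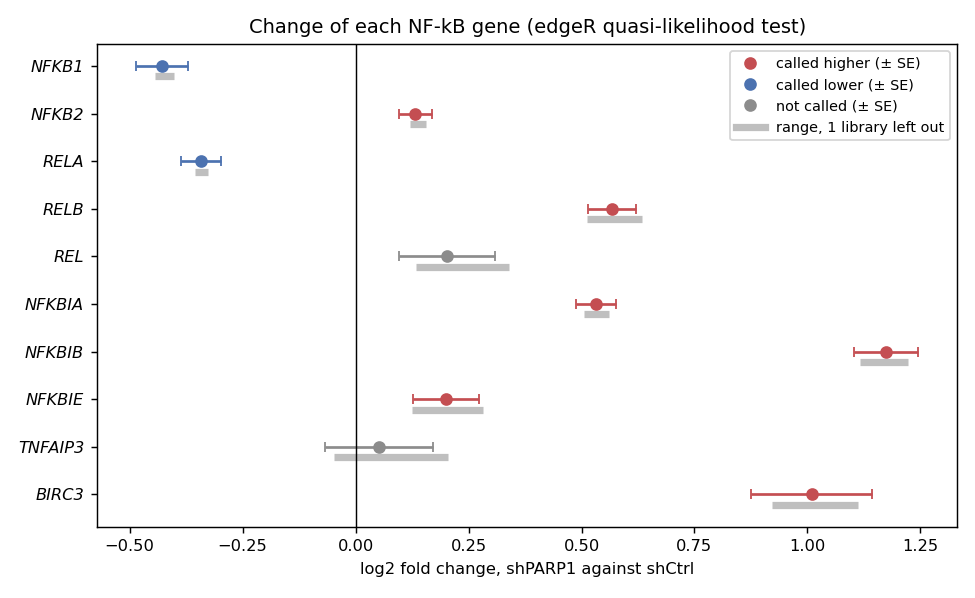
Log2 fold change, shPARP1 against shCtrl (horizontal axis), for each NF-kB gene; points with bars are the estimate ± SE from all 6 libraries, coloured by call, and grey bars span the values with 1 library left out. NFKB1 and RELA lie below 0, NFKBIB (1.17) and BIRC3 (1.01) lie highest, and the grey bar of TNFAIP3 crosses 0.

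All 3 inhibitor genes were called higher, by very different amounts. NFKBIB, the gene of IkB-beta, had 19.4, 16.4 and 18.7 CPM in shCtrl and 43.0, 41.2 and 38.6 CPM in shPARP1. Its log2 fold change of 1.17 (SE 0.07, edgeR adjusted p = 2.6e-21) corresponds to 2.26-fold, the largest change among the 10 genes. The lowest shPARP1 library lay far above the highest shCtrl library. SIRT2, on the opposite strand, shares 40 exon bases (1.7%) with NFKBIB and went from 32.1 ± 1.69 to 37.2 ± 0.611 CPM (SD, n = 3 per group), with a log2 fold change of 0.21.

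NFKBIA, the gene of IkB-alpha, had 69.1, 73.3 and 72.5 CPM in shCtrl and 102, 103 and 105 CPM in shPARP1. The spread within each group was narrow beside the difference, and the log2 fold change was 0.53 (SE 0.04, edgeR adjusted p = 5.6e-16). NFKBIE, the gene of IkB-epsilon, had 26.5, 28.5 and 23.3 CPM in shCtrl and 31.3, 30.8 and 27.8 CPM in shPARP1. Here shCtrl replicate 2 lay above shPARP1 replicate 3, and the log2 fold change was 0.20 (SE 0.07, edgeR adjusted p = 0.016). This call was lost without shCtrl replicate 3 (0.12, edgeR adjusted p = 0.166), without shPARP1 replicate 1 (0.17, edgeR adjusted p = 0.0868) and without shPARP1 replicate 2 (0.18, edgeR adjusted p = 0.0691).

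The 2 feedback genes differed from each other. BIRC3 had 3.93, 3.35 and 4.42 CPM in shCtrl and 7.38, 7.84 and 8.36 CPM in shPARP1. The groups lay apart, and the log2 fold change was 1.01 (SE 0.13, edgeR adjusted p = 3.3e-09), or 2.01-fold. These values rest on 87 to 115 counts per shCtrl library and 242 to 249 per shPARP1 library. On the log2(FPKM + 1) scale the change of BIRC3 was 0.44, since the added 1 exceeds its FPKM in shCtrl, and it stayed called. TNFAIP3 had 7.23, 8.94 and 6.50 CPM in shCtrl and 8.04, 6.94 and 8.53 CPM in shPARP1, with the groups interleaved. Its log2 fold change was 0.05 (SE 0.12, edgeR adjusted p = 0.74), which turned to -0.05 without shCtrl replicate 3 and to -0.01 without shPARP1 replicate 3.

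Levels of different genes were compared per length, with the FPKM that the authors deposited. In shCtrl, NFKB2 was the highest of the 10 genes at 40.4 ± 1.18 FPKM (SD, n = 3), followed by NFKBIA at 32.7 ± 1.42, RELA at 23.8 ± 0.374 and RELB at 19.6 ± 1.37 FPKM. NFKBIE (8.78 ± 0.950), NFKBIB (7.40 ± 0.554) and NFKB1 (7.35 ± 0.0651 FPKM) came next. The libraries of NFKBIB and NFKB1 overlapped, and the lowest of NFKBIE equalled the highest of NFKBIB at 7.82 FPKM. TNFAIP3 (1.39 ± 0.244), REL (0.700 ± 0.104) and BIRC3 (0.490 ± 0.0600 FPKM) were lowest. In shPARP1 the order changed at 4 places. NFKBIA, at 48.8 ± 0.878 FPKM, stood above NFKB2 (45.7 ± 1.01). RELB, at 29.9 ± 1.87, stood above RELA (19.3 ± 0.335). NFKBIB (17.2 ± 0.893) stood above NFKBIE (10.4 ± 0.628), and BIRC3 (1.02 ± 0.0651) above REL (0.830 ± 0.0600 FPKM). NFKB1 was at 5.63 ± 0.168 and TNFAIP3 at 1.48 ± 0.153 FPKM. No 2 neighbours in this order had overlapping shPARP1 libraries. The upper part of the order depended on the length scaling. With CPM per kb of merged exon length in place of FPKM, NFKB2 stayed above NFKBIA in each shPARP1 library (means of 45.9 and 43.7), and RELB (17.1) already stood level with RELA (17.0) in shCtrl. On that scale NFKBIB (17.6) also stood above RELA (13.4) in shPARP1. The changes of NFKBIB against NFKBIE and of BIRC3 against REL were seen on both scales.

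The makeup of the subunit transcripts shifted from RELA toward RELB. RELA made up 25.8%, 26.1% and 25.8% of the summed FPKM of the 5 subunits in shCtrl and 18.9%, 19.1% and 19.2% in shPARP1. RELB made up 22.9%, 20.4% and 20.7% in shCtrl and 30.8%, 28.5% and 29.1% in shPARP1. The ranges of both genes were apart between the groups, and RELA lay below RELB in each shPARP1 library. In shCtrl, RELA exceeded RELB in each library in FPKM, but not in replicate 1 in CPM per kb (17.2 and 18.7). NFKB1 went from 8.01% ± 0.154 to 5.56% ± 0.0713 (SD, n = 3), whereas NFKB2 held 44.0% ± 1.29 and 45.1% ± 0.970, with overlapping libraries. REL stayed below 1% in every library.

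Transcripts of the 3 inhibitor genes gained on subunit transcripts. The summed FPKM of NFKBIA, NFKBIB and NFKBIE was 47.8, 50.5 and 48.5 in shCtrl and 76.9, 76.6 and 75.7 in shPARP1, and that of the 5 subunits 92.3, 92.5 and 90.7 in shCtrl and 104, 101 and 98.6 in shPARP1. The ratio of these sums was 0.518, 0.545 and 0.534 in shCtrl and 0.739, 0.755 and 0.768 in shPARP1. Within the inhibitors, NFKBIB went from 15.2% ± 1.54 to 22.5% ± 0.989 of the sum and NFKBIE from 17.9% ± 1.62 to 13.6% ± 0.713 (SD, n = 3). These shares and ratios combine the values of the 5 subunits and 3 inhibitors and were given no test. The ratio depends on how genes are assigned. NFKB2 was counted as a subunit although p100 also inhibits RELB, and the nuclear IkB genes NFKBIZ and BCL3, given below, were left out.

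**Figure D3:**
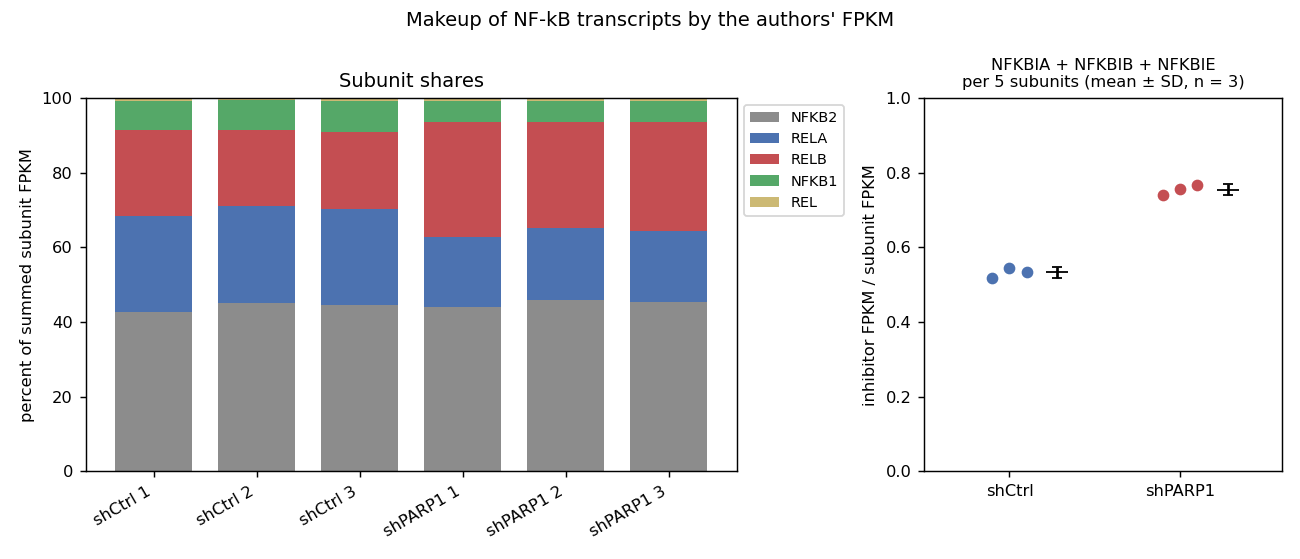
Left, each subunit's percent of the summed subunit FPKM (vertical axis) in each of the 6 libraries; right, summed FPKM of the 3 inhibitors divided by that of the 5 subunits, with points for libraries and mean ± SD. RELB takes a larger share than RELA in the shPARP1 libraries, and the ratio lies between 0.739 and 0.768 there against 0.518 to 0.545 in shCtrl.

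Receptors and adaptors that feed the pathway moved in both directions. Of 27 tested, 9 rose and 10 fell, with a median log2 fold change of 0.00. These are 33.3% and 37.0%, beside 27.3% and 28.5% of all genes tested. The TNF receptors TNFRSF1A, from 628 ± 7.02 to 390 ± 13.2 CPM (SD, n = 3 per group, log2 fold change -0.68), and TNFRSF1B, from 55.2 ± 2.26 to 20.4 ± 0.144 CPM (-1.43), both fell. So did IL1RAP, the accessory chain of the interleukin-1 receptor, from 10.6 ± 1.46 to 3.74 ± 0.126 CPM (-1.49), and the Toll-like receptor TLR2, from 24.4 ± 1.61 to 12.4 ± 0.0957 CPM (-0.98). TRAF1, an adaptor that binds cIAP2, rose from 6.82 ± 0.439 to 13.5 ± 0.412 CPM (0.99).

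Among 14 genes listed as IKK and upstream kinases, some of them adaptors, scaffolds or cofactors, 4 rose and 2 fell (median log2 fold change -0.05). These are 28.6% and 14.3%, beside 27.3% and 28.5% of all genes tested. The kinase subunit IKBKB (20.2 ± 0.288 CPM in shCtrl and 19.3 ± 0.681 in shPARP1) and MAP3K14, the NIK kinase of the non-canonical pathway (144 ± 6.58 and 139 ± 5.88 CPM), were not called. With the length and GC offset MAP3K14 was called at 0.10 (edgeR adjusted p = 0.00811). CDC37, a chaperone cofactor of kinases including IKK, rose from 203 ± 4.66 to 315 ± 8.15 CPM (log2 fold change 0.63). MAP3K3 (-0.51) and TAB2, an adaptor of the TAK1 kinase (-0.45), fell. The small rises of the kinase subunit CHUK (0.34, edgeR adjusted p = 0.028) and of the scaffold IKBKG (0.15, edgeR adjusted p = 0.043) lost their calls without some libraries. CHUK did so without shCtrl replicate 1 or 2 or shPARP1 replicate 1 or 2 (log2 fold changes of 0.27 to 0.35, edgeR adjusted p = 0.0566 to 0.155), and IKBKG without shCtrl replicate 2 or 3 or shPARP1 replicate 1 or 2 (0.09 to 0.16, edgeR adjusted p = 0.0560 to 0.312). Neither was called by DESeq2 (adjusted p = 0.0826 and 0.102). The number of genes of this list that were called fell to 3 without shPARP1 replicate 1. IKBKG has a near-identical pseudogene, which makes its counts uncertain.

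In the list of ubiquitin editors and other inhibitors, 14 of 28 genes tested were called higher and 4 lower (median log2 fold change 0.22). The list also holds genes that act for the pathway, in both directions. NFKBIZ, BTRC and FBXW11 are among those that fell, and UBE2N and SHARPIN (log2 fold change 0.33) among those that rose. The counts and median of the list thus do not describe inhibitors alone. The A20 cofactor TAX1BP1 rose from 7.25 ± 0.367 to 14.3 ± 0.887 CPM (SD, n = 3 per group, log2 fold change 0.98). COMMD1, which promotes degradation of RELA, rose from 13.4 ± 1.24 to 25.4 ± 0.685 CPM (0.92), and UBE2N, the conjugating enzyme for K63-linked chains, from 46.9 ± 2.15 to 72.9 ± 2.09 CPM (0.64). The deubiquitinase CYLD rose (0.34), as did BIRC2, the cIAP1 gene beside BIRC3 (0.33, edgeR adjusted p = 0.027). BIRC2 lost its call without shCtrl replicate 1 (edgeR adjusted p = 0.218) without shPARP1 replicate 2 (edgeR adjusted p = 0.136) and in DESeq2 (adjusted p = 0.0863). NFKBIZ, a nuclear IkB protein that assists transcription of secondary targets, fell from 121 ± 1.93 to 83.3 ± 2.14 CPM (-0.53), and BCL3, another nuclear IkB, was not called (58.8 ± 1.82 and 61.0 ± 4.28 CPM), except with the length and GC offset (0.22, edgeR adjusted p = 1.3e-05). Chosen after their values were seen, BTRC (-0.53) and FBXW11 (-0.57), the receptor subunits of the ligase that ubiquitinates phosphorylated IkB, both fell, BTRC from 23.6 ± 1.68 to 16.4 ± 1.34 CPM and FBXW11 from 24.5 ± 1.44 to 16.5 ± 0.296 CPM.

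**Figure D4:**
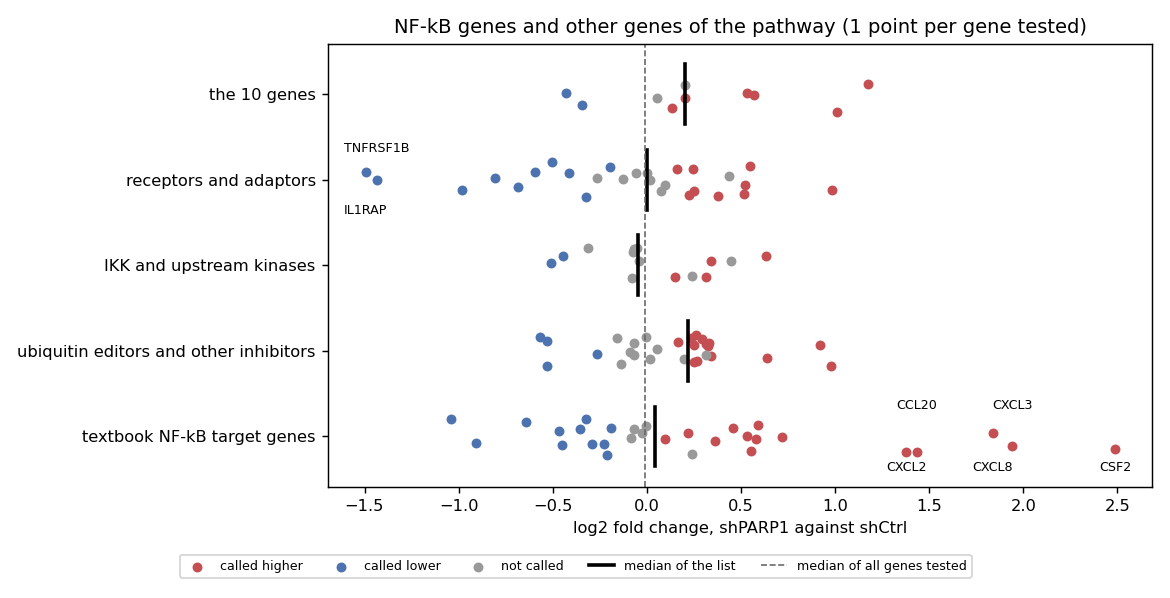
Log2 fold change, shPARP1 against shCtrl (horizontal axis), of each tested gene in the NF-kB group and in 4 lists of the pathway (rows), coloured by call; black bars are list medians and the dashed line is the median of all genes tested (-0.01). Targets spread from CSF1 (-1.04) to CSF2 (2.49), and the lists hold genes called in both directions.

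Textbook NF-kB targets did not share a direction. Of 30 tested, 14 rose, 11 fell and 5 were not called, with a median log2 fold change of 0.05. The shares that rose and fell were 46.7% and 36.7%, beside 27.3% and 28.5% of all genes tested. The neutrophil chemokine CXCL8 had 69.2, 76.3 and 76.5 CPM in shCtrl and 258, 263 and 273 CPM in shPARP1 (1.84), and the growth factor CSF2 had 14.8, 14.0 and 12.2 CPM and then 80.7, 74.4 and 74.1 CPM (2.49). CXCL2, whose counts may be shared with close paralogs, rose from 19.6 ± 1.30 to 51.0 ± 0.630 CPM (1.38). The cytokine IL6 (0.58) and the mitochondrial superoxide dismutase SOD2 (0.56) rose as well, beside 0.53 for NFKBIA and 0.57 for RELB. The macrophage growth factor CSF1 fell from 291 ± 8.57 to 142 ± 4.13 CPM (-1.04), and the adhesion molecule ICAM1 from 295 ± 2.25 to 216 ± 1.41 CPM (-0.45).

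Several of the listed targets were hardly seen. TNF had 5 counts over all 6 libraries, IL1B 9, CCL2 21 and CXCL1 1, and they were not tested. Of 24 tested targets with a promoter window, 14 held a kappa-B match, of which 7 rose and 5 fell, and 10 held none, of which 6 rose and 2 fell. Over all tested genes with a window, 25.9% of the 1819 with a match were called higher and 38.8% lower, beside 31.0% and 29.9% of the 8570 without one. CXCL2 and IL6 belong to the former and CXCL8, CSF2 and ICAM1 to the latter. Genes without a match may still hold kappa-B sites that differ from the motif or lie outside the window. For comparison with the sites above, those of CXCL2 and IL6 are shown.
CXCL2: tggagctccGGGAATTTCCCtggcccggga
IL6: tatcaaatgtGGGATTTTCCcatgagtctc

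The CXCL2 run lies at chr4:74099253-74099282 on the minus strand, from -78, and has the same matched letters as that of NFKBIB. The IL6 run lies at chr7:22727117-22727146 on the plus strand, from -73. Among the 7 NF-kB genes with a match, 4 rose (NFKB2, NFKBIA, NFKBIB and BIRC3), NFKB1 fell, and REL and TNFAIP3 were not called, to be read against the same 25.9% higher and 38.8% lower of all tested genes with a match.

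The genes whose pattern over the 6 libraries was most like that of NFKBIB, by Pearson's r of log2 CPM among 10057 other genes averaging 5 CPM or more, were ZNF787, IL11 and FAM101B, with r between 0.9992 and 0.9995. IL11, a cytokine of the IL6 family, went from 90.2 to 168 CPM. With 2 groups of 3 libraries, r mostly follows the difference between groups, and 2731 of these genes had an r above 0.9.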

How the data were processed

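Per the submitters' processing notes, reads were handled with bcl2fastq, TopHat2 and edgeR on GRCh38. For versions, counting tool, strand setting and annotation, the labels used here say nothing, so reads of overlapping genes on opposite strands may not be separated. The authors deposited raw read counts per gene and FPKM rounded to 2 decimals for the same 6 libraries.

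Counts were tested in R 4.3.3 with edgeR 4.0.16 (filterByExpr, TMM, robust quasi-likelihood F test, no covariates, Benjamini-Hochberg adjustment over 16040 genes, called under 0.05). CPM are TMM-scaled, and the SE is the log2 fold change divided by the square root of F. On simulated counts with 16040 genes, 50 genes were changed at each fold, with a spread taken from the trend over expression levels. Of these, 56% of 1.25-fold, 84% of 1.5-fold and 96% of 2-fold changes were called, with 3 false calls. Far fewer genes changed there than were called in the data, so these rates do not carry over to the data. At these depths 3 counts equal 0.0914 to 0.123 CPM. Within-group chi-square per degree of freedom was 2.54 to 4.54, so the spread within groups exceeded counting noise. Each library was treated as 1 replicate, but these values do not show that the libraries came from separate cultures.

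Named genes were the 10 members, PARP1, up to 4 called genes per list by smallest p averaging 5 CPM or more, 15 preset pathway genes and the 3 most alike in pattern. The members and lists were chosen with earlier results of these data known. Alternatives used DESeq2 1.42.0, limma 3.58.1 on voom weights or log2(FPKM + 1) and log2(FPKM + 0.1), other scalings and filters, a 1.5-fold minimum, thinned counts, a replicate block, left-out libraries, and an offset for GENCODE 29 exon length and GC content (99.2% of tested genes). Python 3.11.15 searched the promoters.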

Additional observations from a re-analysis of the deposited data

How the results depend on the processing

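Of 190 recomputed log2 fold changes of the 10 NF-kB genes, 177 kept their direction and side of the threshold, 9 lost their call, 2 gained one and 2, both of TNFAIP3 with 1 library left out (range -0.048 to 0.21), changed sign. The 6 higher and 2 lower calls ranged over 5 to 6 and 2 to 2 with 1 library left out. An equal count did not always mean the same genes. Without shCtrl replicate 3 the 6 called higher held REL in place of NFKBIE. Against a 1.5-fold minimum (edgeR glmTreat), 1571 of all genes were called (9.79%), with 2 of the 10 NF-kB genes higher, NFKBIB and BIRC3, and 0 lower (also 0 at an unadjusted p under 0.05). The same test called 5 receptors and adaptors (1 higher, 4 lower), 0 IKK and upstream kinases (0 higher, 0 lower, with 1 at an unadjusted p under 0.05), 2 ubiquitin editors and other inhibitors (2 higher, 0 lower, also 0 lower unadjusted) and 7 targets (5 higher, 2 lower). No other tool was run against a fold minimum. Of the list of IKK and upstream kinases, DESeq2 called 3 genes, 1 of them higher. Leaving out a library gave 3 to 6, with 1 to 4 higher. IKBKB turned to 0.12 after the length and GC correction. MAP3K14 turned to 0.10 after it, to 0.000201 on log2(FPKM + 0.1) and to 0.000193 on log2(FPKM + 1). BCL3 ranged from -0.0034 (without shPARP1 replicate 1) to 0.093 with 1 library left out. The causes were not tested. With CPM per kb of merged exon length in place of FPKM, the inhibitor to subunit ratio was 0.572 in shCtrl and 0.802 in shPARP1. Same-numbered libraries did not deviate together (r between -0.004 and 0.036 over genes), so the numbers were not taken as pairs; with the replicate block 9060 genes were called, and 6 higher and 2 lower of the 10. REL, TNFAIP3 and BIRC3 had the fewest counts of the 10 genes, and thinning to the smallest total changed the call of none of these 3.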
